A study of Mus musculus with 2 samples.

Results

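Mir22 is the mouse gene for the microRNA (miRNA) miR-22. It was taken by its symbol in GENCODE M21 for the Ensembl identifier ENSMUSG00000065529.1, and it is 1 of 2202 miRNA genes in the count tables. The symbol belonged to 1 row of each table. Small RNA was sequenced from the adrenal glands of female B6CASTF1/J mice, the first generation of a cross between C57BL/6J and CAST/EiJ, at 18 to 20 months of age. The labels hold 1 group of 2 biological replicates, with no second age, sex, strain or treatment, and give the replicates separate biosample records and sample numbers but the same donor record. Whether they come from separate animals is not settled by the labels. Spread and tests below describe these 2 samples, and the data hold no measure of senescence against which the gene's link to it could be read.

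miRNAs are short RNAs cut from a hairpin precursor. Either arm of the hairpin can be loaded into an Argonaute protein, where bases 2 to 8, the seed, pair with target mRNAs and lower their output. miR-22 is known as an inducer of senescence in human fibroblasts, through SIRT1 and CDK6 among other targets. In mice it is known as a regulator of heart growth and of the Tet enzymes, and it is abundant in heart and skeletal muscle.

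The mature arms of miR-22 are shown because the seed defines which miRNAs could act with it. Sequences are from RefSeq on GRCm38.p6, the same assembly as mm10, on the plus strand, and capitals mark the seed.
mmu-miR-22-5p: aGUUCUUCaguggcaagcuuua
mmu-miR-22-3p: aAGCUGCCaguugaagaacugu
The hairpin is shown with both arms in capitals.
Mir22 hairpin: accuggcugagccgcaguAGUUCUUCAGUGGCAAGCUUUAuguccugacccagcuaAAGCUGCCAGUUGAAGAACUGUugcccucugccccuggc

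The hairpin is 95 bases long, at chr11:75463716-75463810 of mm10, and the RefSeq and GENCODE sequences were identical. miR-22-5p lies at chr11:75463734-75463755 and miR-22-3p at chr11:75463772-75463793, each 22 bases long with 16 bases between them. In the structure of lowest energy from RNAfold, -41.9 kcal per mol, the arms paired with each other at 19 positions. Its energy per base was -0.44 kcal per mol. Among the 293 detected miRNA genes with a RefSeq hairpin, where detected means at least 10 counts in each library, 131 had a lower energy per base, and the median was -0.43. Both arms had their own seed: of 1738 mature sequences in the RefSeq table, 0 from other genes shared bases 2 to 8 of either arm. Bases 2 to 7 of miR-22-5p also occurred in miR-6935-3p and miR-7092-3p, whose genes Mir6935 and Mir7092 had 2 and 0 counts in replicate 1 and 3 and 0 in replicate 2. No other miRNA hairpin that does not overlap it shared 18 bases with Mir22, so within the annotated hairpins its reads had a single place to align. The counts are per hairpin gene and do not separate the arms.

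Mir22 is exonic. It lies in exon 2 of both annotated transcripts of Mir22hg (ENSMUSG00000085148.1), a noncoding host gene at chr11:75461539-75466676 on the plus strand. One of these transcripts has 3 exons and the other 2, and the hairpin starts 23 bases into exon 2 in each. The same exon is annotated in a transcript of the protein-coding gene Tlcd2 that has 5 exons and is listed as a processed transcript without a coding sequence. The nearest protein-coding genes that do not overlap Mir22 are Wdr81, 8998 bases away on the minus strand, and Prpf8, 23005 bases away on the plus strand.

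**Figure D1:**
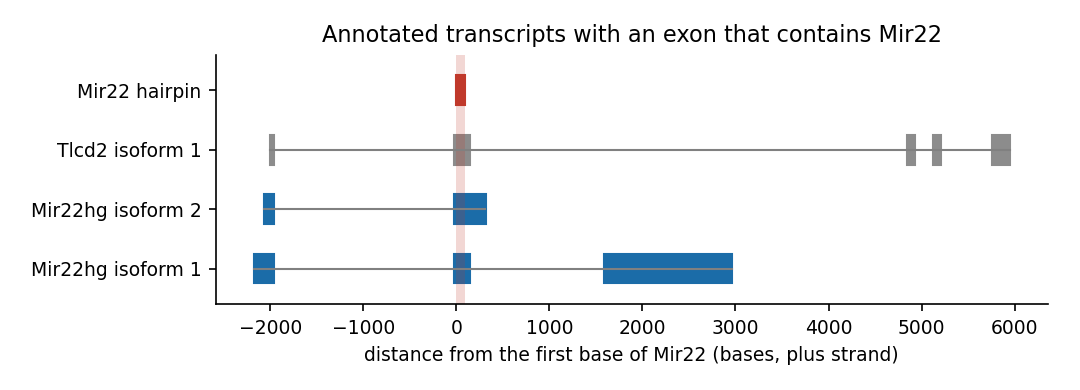
The 3 annotated transcripts with an exon containing Mir22, drawn to scale as distance in bases from the first base of the hairpin; boxes are exons, lines are introns and the shaded band is the 95-base hairpin. In all 3 transcripts the hairpin sits in exon 2, starting 23 bases from that exon's first base.

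Mir22 was among the abundant miRNAs of the aged adrenal gland in both libraries. It had 41262 own-strand counts in replicate 1 and 21194 in replicate 2, of 2590051 and 2291030 counts in all miRNA genes. Its share of counts was 1.59% in replicate 1, with a Wilson 95% interval from 1.58% to 1.61%. The share in replicate 2 was 0.925%, from 0.913% to 0.938%, and the mean was 1.26% ± 0.472 (SD, n = 2). In CPM, which are counts per 1000000 own-strand counts, the levels were 15931 and 9251. The gene ranked 17 in replicate 1, 23 in replicate 2 and 20 by mean CPM. The intervals, which cover counting error only, were far narrower than the gap between the libraries. The standard deviation was 37.5% of the mean, beside a biological coefficient of variation of 43.2% over all tested miRNAs from edgeR's common dispersion. That coefficient is a single pooled value and not that of a typical miRNA. The median absolute log2 ratio between the libraries was 0.46 over tested miRNAs, and the log2 ratio of Mir22 was -0.75.

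The reads came from the hairpin's own strand. The opposite strand had 0 counts in both libraries, which allows up to 3 counts, or 0.00727% and 0.0142% of the own-strand counts. No miRNA gene is annotated on the other strand at this position, and the counts with strand ignored were equal to the own-strand counts. Of all reads in the tables, including those that were unmapped, aligned to several places or fell in no miRNA gene, Mir22 held 0.421% and 0.303%.

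**Figure D2:**
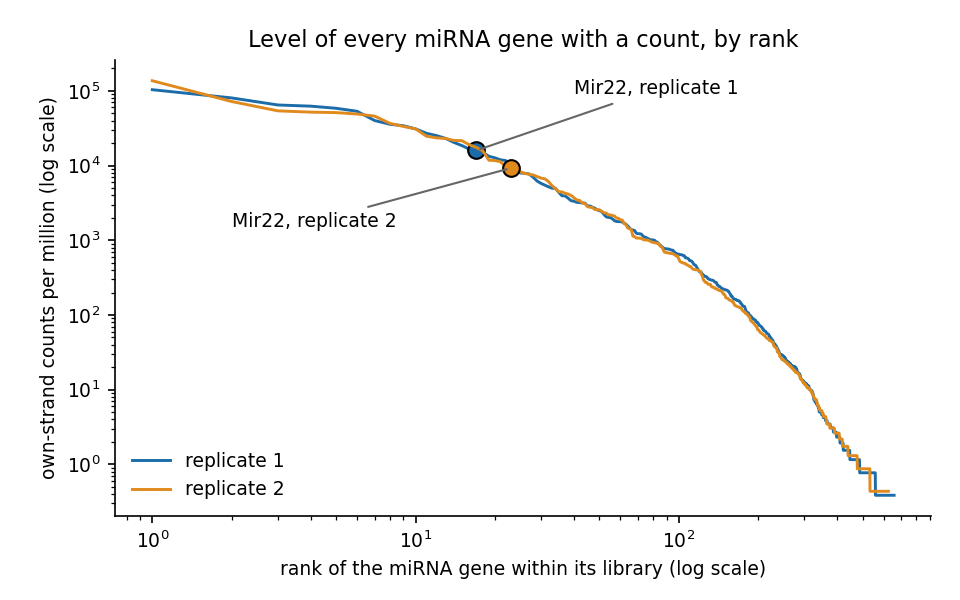
Own-strand CPM of every miRNA gene with at least 1 count, against its rank within its library, both on log scales; lines are the 2 libraries and circles mark Mir22. Mir22 stands at rank 17 with 15931 CPM in replicate 1 and at rank 23 with 9251 CPM in replicate 2, before the steep part of both curves.

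Order by mean level placed Mir22 between Mir99a and Mirlet7e, but most of its neighbours could not be ranked against it with 2 samples. Levels of different miRNAs are compared as CPM, not divided by length, since a read covers about a whole mature miRNA. Of the 5 genes above and 5 below it, 7 had a range of CPM that overlapped the range of Mir22, and these 7 held ranks 17 to 24 by mean CPM. Mir744, hosted by Map2k4, had 13303 and 18987 CPM in replicates 1 and 2, and Mir652 had 11955 and 15819. Mir99a, hosted by Mir99ahg, had 15110 and 11798 CPM. Below Mir22, Mirlet7e had 12719 and 11677 CPM, Mir30d 9155 and 11289, Mir29a 11677 and 8251, and Mir151 9048 and 9619. Mir26b and Mir10b lay wholly above the range of Mir22, with lowest values of 18538 and 16633 CPM, and Mir191 lay wholly below it, with 7968 and 7856.

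Profiles most like that of Mir22 were those of Mir99a, Mirlet7e, Mir29a, Mir151 and Mir30d. Likeness was the Euclidean distance between log2(CPM + 1) values over the 2 libraries, at 0.36, 0.47, 0.48, 0.82 and 0.85. These 5 genes are also neighbours in rank, since with 2 libraries the distance depends mostly on level.

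**Figure D3:**
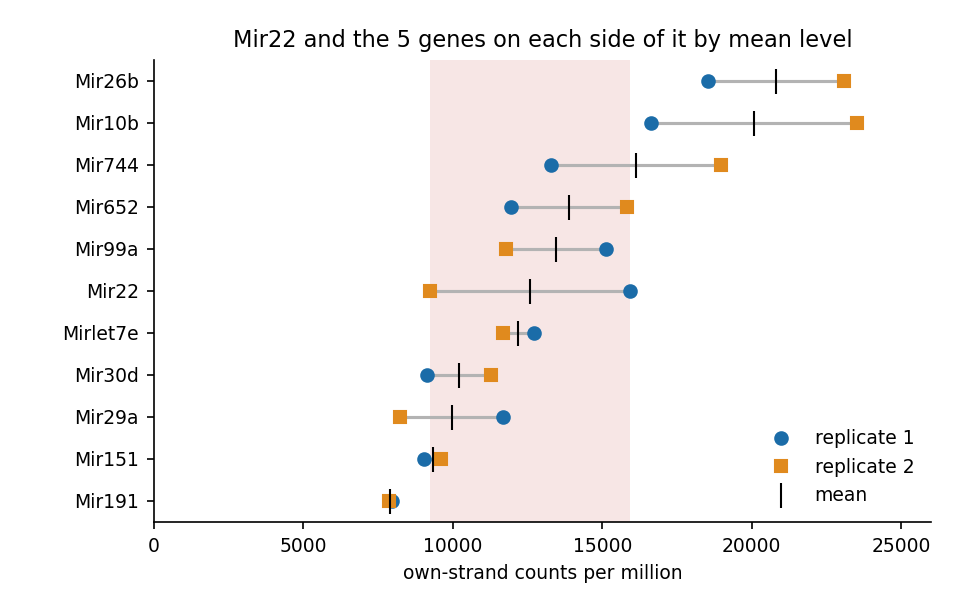
Own-strand CPM of Mir22 and of the 5 genes on each side of it by mean CPM; circles are replicate 1, squares replicate 2, black ticks the mean, and the shaded band is the range of Mir22. Bars of 7 neighbours reach into the band, while Mir26b, Mir10b and Mir191 lie outside it.

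Between the libraries, Mir22 was 1.68-fold higher in replicate 1. The log2 ratio of replicate 2 over replicate 1 was -0.75 (exact conditional 95% interval -0.77 to -0.72), after scaling by TMM factors of 1.01 and 0.987. It passed the two-sided exact conditional binomial test after Benjamini-Hochberg adjustment at 0.05. This test compares the reads of these 2 libraries with counting error only and has no replicate check. At such depth most miRNAs passed it: 62.7% of 367 tested did, 32.4% higher in replicate 1 and 30.2% higher in replicate 2. With a difference of at least 1.5-fold also required, 35.1% passed, 21.8% higher in replicate 1 as Mir22 was and 13.4% higher in replicate 2.

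Set beside genes of similar level, the gap of Mir22 was wide. Of the 20 genes within 10 ranks of it, only Mir99b, named after its values were seen, had a larger absolute log2 ratio, at 1.46 with 3383 and 9084 CPM. Among the 20, 9 were called higher in replicate 1 and 10 higher in replicate 2. Of the 9, 3 differed by at least 1.5-fold and came near Mir22: Mir21a at -0.69, Mirlet7d at -0.66 and Mir143 at -0.59. The median absolute log2 ratio of these 20 was 0.35, and that of all 367 tested miRNAs 0.46. Among the 50 most abundant miRNAs, 7 had a larger absolute log2 ratio than Mir22. Only 2 of these were higher in replicate 1, also named after their values were seen: Mir126a at -0.92 and Mir100 at -1.10. Over all 339 detected genes, 87 had a larger absolute ratio, which is 25.7%, and low counts widen the ratios of rare genes. These positions are a description of 2 libraries.

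**Figure D4:**
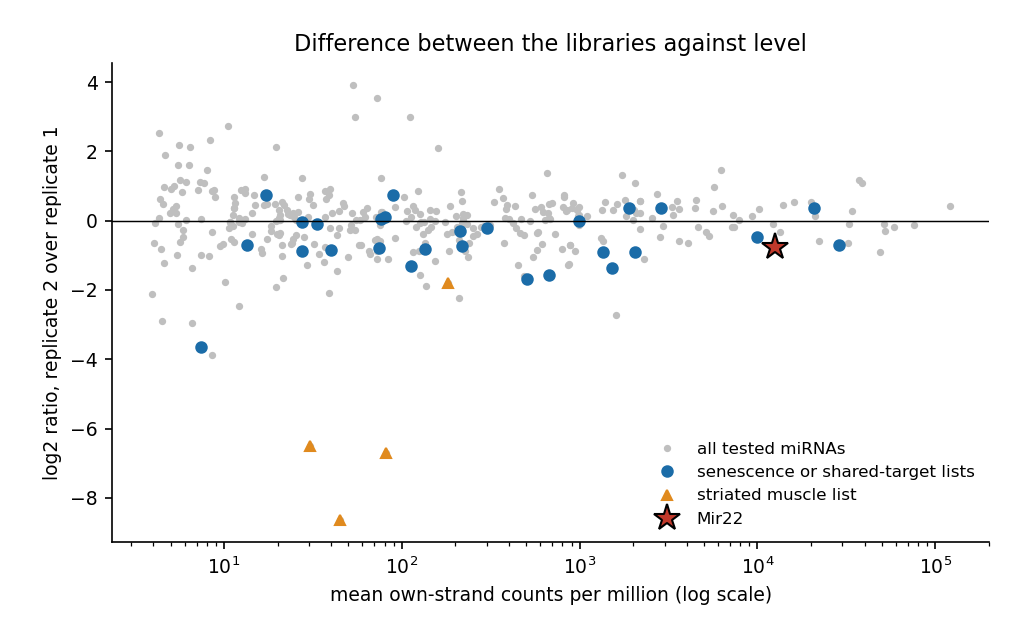
Log2 ratio of replicate 2 over replicate 1 against mean CPM (log scale) for the 367 tested miRNAs; grey dots are all, blue circles the senescence and shared-target lists without Mir22, orange triangles the striated muscle list and the star Mir22. Mir22 lies at -0.75, below most genes of its level, and the 4 tested muscle miRNAs lie lower, at -1.80 and below, where the point of Mir208a, with 0 counts in replicate 2, depends on the prior count.

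Other tissues' miRNAs also differed between the libraries, and in a bulk sample fewer cells of a type and less RNA per cell cannot be told apart. The striated muscle list, of interest because miR-22 is abundant in muscle, summed to 598 CPM in replicate 1 and 81.2 CPM in replicate 2. All 4 of its tested members were called higher in replicate 1, but 3 of them had under 10 counts in replicate 2 and entered the test through replicate 1, so this count is no support for a direction. Mir206, a skeletal muscle miRNA, had 737 and 182 counts. The myosin-hosted Mir499 had 420 and 3, Mir208a 231 and 0, and Mir208b, named after its values were seen, 157 and 1. Mir1a-1, Mir133a-1, Mir133a-2 and Mir133b were at 0 in both libraries and Mir1a-2 had 3 and 0 counts, but these 5 of the 9 members share 18 bases with another miRNA gene, and reads that fit several loci were left out of the counts. The summed list differed by 516 CPM between the libraries and Mir22 by 6680 CPM. The part of muscle RNA in the difference of Mir22 was not tested.

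The summed levels of the vascular and stromal lists were, like Mir22, higher in replicate 1. The endothelial list, nearly all Mir126a, summed to 64764 and 33414 CPM, and Mir126a had a log2 ratio of -0.92. Mir126b, with 31 and 3 counts, entered the test through replicate 1 alone. Smooth muscle and mesenchymal miRNAs summed to 31248 and 20692 CPM: Mir143 at a log2 ratio of -0.59 and Mir214 at -2.73 were higher in replicate 1, and Mir145a was higher in replicate 2 at 1.07. Of 5 tested, 4 were called higher in replicate 1, beside 32.4% of all tested miRNAs. Under the stricter minimum of 200 summed counts the tally was 2 of 3, with no share over all miRNAs given at that minimum. Mir199a-2, with 36 and 2 counts and picked after these were seen, entered the test through replicate 1, and 3 of the 7 members share 18 bases with another gene. The erythroid list summed to 902 and 490 CPM, with Mir451a at a log2 ratio of -1.05 and Mir144 at -0.57 called higher in replicate 1, while Mir486 did not pass (0.25, adjusted p 0.155, exact test). Neuroendocrine and neuronal miRNAs, listed for the adrenal medulla, summed to 66107 and 56589 CPM. Of these, 4 of 4 tested were called higher in replicate 1, beside 32.4% of all tested miRNAs, and 1 by at least 1.5-fold. Mir375, known from endocrine cells, held most of the sum, with 62443 and 54040 CPM and a log2 ratio of -0.17. Mir7b was at -0.48 and Mir7-1 at -0.56. Mir124a-1, Mir124a-2, Mir124a-3 and Mir9-2 of this list were at 0 in both libraries, and 8 of its 10 members share 18 bases with another gene. The part of these cell types in the difference of Mir22 was not tested either.

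Leukocyte miRNAs summed to similar levels in the 2 libraries, and epithelial and liver miRNAs to higher levels in replicate 2. The leukocyte list summed to 3045 and 2955 CPM. Of 6 tested, 1 was called higher in each direction, beside 32.4% and 30.2% of all tested miRNAs. Mir155 was the one higher in replicate 1, at a log2 ratio of -0.22. Mir146, its most abundant member, had a log2 ratio of -0.02 (adjusted p 0.678, exact test). Mir342 at 0.01 and Mir150 at 0.00 did not pass either (adjusted p 0.898 and 1, exact test), and their sign turned with DESeq2 size factors. Epithelial miRNAs summed to 1192 and 1871 CPM, and 4 of 5 tested were called higher in replicate 2, beside 30.2% of all tested miRNAs. The 4 included Mir203 at 0.53, Mir200c at 3.00 and Mir200b at 2.13. Mir141, with 6 and 24 counts, entered the test through replicate 2 alone. Mir429 had its higher level in replicate 1, at 19 and 8 counts, and missed the threshold at a log2 ratio of -0.98 (adjusted p 0.169, exact test). Mir141 and Mir429 are named here after their counts were looked at. Mir122, the liver miRNA, had 622 and 702 CPM, with a log2 ratio of 0.21.

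Among 20 senescence and ageing miRNAs, Mir22 was the second most abundant, after Mir21a. It held 21.3% of the list's counts in replicate 1 and 19.1% in replicate 2. Of 16 other members tested, 8 were called higher in replicate 1 and 3 higher in replicate 2, beside 32.4% and 30.2% of all tested miRNAs. The median log2 ratio of these 16 was -0.34, beside 0.02 over all tested miRNAs. Of the 20 members, 9 share 18 bases with another miRNA gene.

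Mir21a, an abundant miRNA of stressed and proliferating tissue hosted by Vmp1, had 35736 and 21558 CPM. Its ratio to Mir22, which needs no scaling between libraries, was 2.24 in replicate 1 and 2.33 in replicate 2. Mir29a, of a family known for restraining collagen genes, had 0.733 and 0.892 counts for each count of Mir22. Mir34a, a p53 target in the senescence response, had 2688 and 1389 CPM, or 0.169 and 0.150 counts for each count of Mir22. These 3 and Mir22 were all higher in replicate 1, with log2 ratios of -0.69 for Mir21a, -0.46 for Mir29a, -0.92 for Mir34a and -0.75 for Mir22.

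Other senescence miRNAs were less abundant or differed the other way. Mir34c, also a p53 target, had 2553 and 3174 CPM and a log2 ratio of 0.35, and Mir335, hosted by the imprinted gene Mest, had 1691 and 2117 CPM and 0.36. Mir494, at 67.2 and 110.0 CPM, was also called higher in replicate 2. Mir195a had 1012 and 330.4 CPM and a log2 ratio of -1.58, and Mir29c had 1781 and 918 CPM and -0.92. Mir155, an inflammatory miRNA, was called higher in replicate 1 at -0.22, as were Mir29b-1 at -0.85 and Mir29b-2 at -0.89. Mir146, Mir34b, Mir128-1, Mir181a-1 and Mir181a-2 did not pass, with log2 ratios from -0.71 to 0.05. Mir146b, Mir217 and Mir128-2 had at most 6 counts in a library and were not tested.

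**Figure D5:**
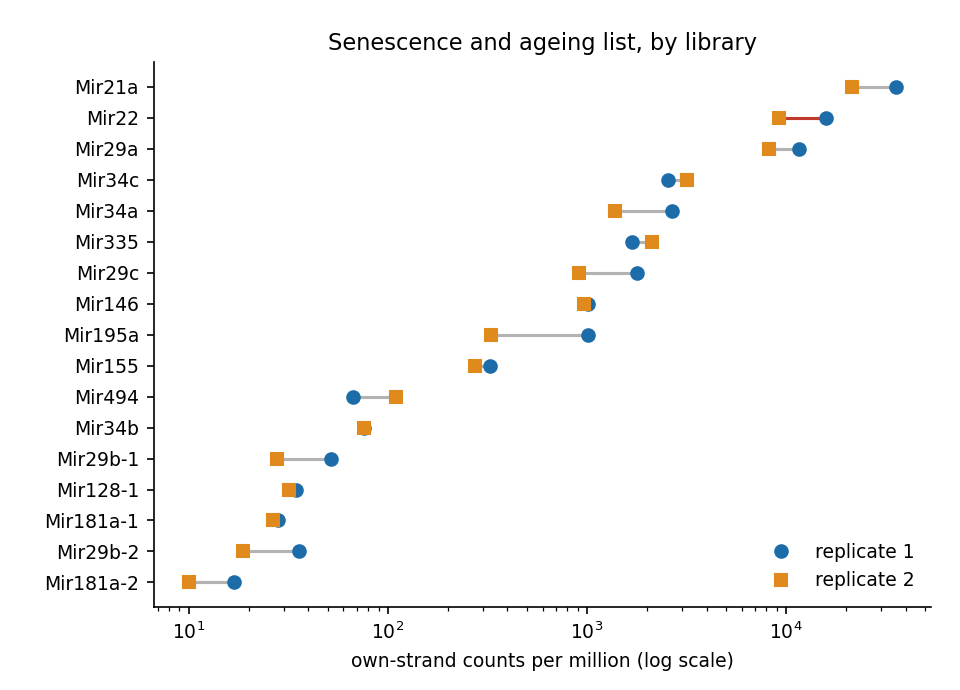
Own-strand CPM (log scale) of the 17 senescence and ageing miRNAs with at least 10 counts in a library, ordered by mean; circles are replicate 1, squares replicate 2, and the red line joins the values of Mir22. Mir22 stands second at 15931 and 9251 CPM, and Mir34c, Mir335 and Mir494 were called higher in replicate 2.

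miRNAs known to act on the same targets as miR-22 were compared next, with no measurement of the targets themselves. For the Tet enzymes, which oxidise methylated DNA, Mir22 was second of 12 miRNAs after Mir26b and held 32.0% and 21.8% of the list's counts. Mir26b had 18538 and 23082 CPM, so the gap between the pair was wider in replicate 2, where Mir26b had 2.50 counts for each count of Mir22 against 1.16 in replicate 1. Of 11 others tested, 10 were called higher in replicate 1 and only Mir26b higher in replicate 2 (median -0.83). Over all tested miRNAs the shares were 32.4% and 30.2%. The 10 are loci of the Mir29, Mir101, Mir125b and Mir26a families, so they are not separate observations. Of the 12 members, 9 share 18 bases with another miRNA gene, all of them among these 10, so their levels can be too low.

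For Sirt1, a deacetylase whose loss is linked to senescence, Mir22 was the most abundant of 14 listed miRNAs, with 72.4% and 77.4% of the list's counts. The 9 listed loci of Mir9, Mir138, Mir181a and Mir199a share 18 bases with another miRNA gene, and Mir9-2 was at 0 in both libraries, so both the rank and the share can be too high. Of 8 others tested, 4 were called higher in replicate 1 and 1 higher in replicate 2, with a median of -0.81. Mir199a-2 is among the 4, and entered the test through replicate 1 alone. The next in level were Mir34a and Mir132, a miRNA induced through CREB, which had 2215 and 833 CPM. Mir138-2, named after its values were seen, was the member higher in replicate 2, with 34 and 49 counts. The lists overlap, since Mir29a, Mir34a and others stand on several of them, and they are read against the backgrounds of 32.4% and 30.2% above.

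Exonic miRNAs of noncoding hosts, the class of Mir22, took 19.6% and 20.6% of counts. Of 73 such genes, 38 were detected (52.1%, against 15.4% of all 2202 genes), and Mir22 ranked 3 among them by mean CPM. Mirlet7b, in an exon of Lncppara, had 12.02% ± 2.34 of counts and Mirlet7d, in an exon of 6720427I07Rik, had 3.24% ± 1.08 (SD, n = 2 each). Mir30d and Mir191 followed. Mirlet7d was higher in replicate 1, at a log2 ratio of -0.66, and had 2.51 and 2.68 counts for each count of Mir22. Mirlet7b was higher in replicate 2, at 0.44, and Mir191 did not pass (0.02, adjusted p 0.319, exact test; the sign turned with total counts). Of the 40 tested genes of the class, 14 were called higher in replicate 1 and 16 higher in replicate 2, with a median log2 ratio of 0.03, beside 32.4% and 30.2% of all tested miRNAs.

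On chromosome 11, Mir22 ranked 4 of 137 miRNA genes by mean CPM, behind Mir10a, Mir21a and Mir744. It held 14.7% of the chromosome's miRNA counts in replicate 1 and 9.46% in replicate 2. It had no close miRNA neighbour: the nearest annotated ones, Mir3971 at 87.6 kb and Gm47300 at 145 kb, had 0 counts in both libraries. The nearest detected ones were Mir132, 290.0 kb towards lower coordinates with a log2 ratio of -1.37, and Mir423, 1614 kb towards higher coordinates with 0.56. Of the 29 genes tested on the chromosome, 13 were called higher in replicate 1 and 9 higher in replicate 2, again beside 32.4% and 30.2% of all tested miRNAs.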

How the data were processed

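Small RNA (labelled size range below 30) was sequenced in 2 samples of 1 group. The authors deposited raw read counts for each miRNA gene, with strand ignored and for each strand, on mm10 with GENCODE M21, per the deposited notes. How reads were trimmed, aligned and counted is not given in the sources used. Own strand means the stranded column whose total was larger in the 2 tables. The rows that name no gene were left out of totals: of 9807567 and 6993665 reads in replicates 1 and 2, 40.6% and 29.8% were unmapped, 24.0% and 28.0% aligned to several places, and 8.94% and 9.44% fell in no miRNA gene. mm10 is a C57BL/6J genome, so reads that differ at CAST/EiJ alleles may be missing, which was not tested.

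CPM are own-strand counts per 1000000. Libraries were compared with an exact conditional binomial test (SciPy 1.17.1) on counts, with TMM scaling (edgeR 4.0.16), over genes whose counts summed to at least 20. Log2 ratios carry a prior count of 0.5. The code was tested on simulated counts with counting error only. It called 74.7% of 1.5-fold and 100% of 4-fold changes in the right direction, and 4.19% of unchanged genes. Without variation between samples, the simulation cannot show how the calls behave in these data. Alternatives used DESeq2 1.42.0 size factors, total counts, other filters and other denominators. Folding used ViennaRNA 2.7.2. PCR copies are not independent molecules, so intervals and the limit of 3 counts for a count of 0 cover counting error only. Of the listed symbols, Mir486b had no match.

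Mir22, the lists and the tests were chosen with earlier results of these data known. Genes named are Mir22, the 5 on each side of it by mean CPM, the 5 most like it, the 3 most abundant of each list, all senescence list members with at least 10 counts in a library, the 5 most abundant exonic miRNAs of noncoding hosts and the nearest miRNA genes on its chromosome. Others are named where a count or match is described. A further list of miRNAs is not reported here.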

Additional observations from a re-analysis of the deposited data

How the results depend on the processing

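The log2 ratio of Mir22 stayed below 0 and past the threshold under each of the 6 alternatives run, from -0.88 with no filter on low counts to -0.70 with totals that leave out the 10 most abundant genes. Its share was 0.362% of all reads in the tables, and from 0.954% to 1.46% with the other denominators and with strand ignored. Without replicate 1 or without replicate 2 the share was 0.925% or 1.59% and the rank 23 or 17. The rank was 14 when genes that share 18 bases were left out. The number of miRNAs called different ran from 170 of 276 tested, without genes that share 18 bases, to 226 of 367 with total counts. With no filter it was 219 of 724, and in the main test 230 of 367. With a summed count of at least 200, counts fell with the number tested: 0 Sirt1-list miRNAs higher in replicate 2 of 5 tested, 1 endothelial and 2 mesenchymal higher in replicate 1 of 1 and 3, and 2 epithelial higher in replicate 2 of 2. No share over all miRNAs is given at that minimum, so these tallies have no background and show no direction. All 49 other tested genes that the naming rule gives kept their side of the threshold with DESeq2 size factors and with total counts. No replicate could be left out of a ratio between 2 libraries. No paired analysis was possible because the labels give a single group. With 2 samples, the spread of Mir22 and not sequencing depth limits its precision.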
